A study of Xenopus laevis with 59 samples.

Results

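Section B is the subanimal part of the *Xenopus laevis* oocyte, the second of 5 slabs counted from the animal pole. The comparison described here is stage V against stage IV within that section. Its members were defined by section and stage, a choice made with earlier results of these data known. They were the libraries labelled as section B of small, medium and big oocytes of 1 female, 9 of the 59 libraries in the series. The stage IV group holds the 5 small oocytes (diameters of 720 to 810 µm), and the stage V group holds the 2 medium (1050 µm) and the 2 big oocytes (1140 and 1200 µm). All were untreated oocytes of the same female, labelled female 1, so that p-values measure the spread between oocytes and no spread between animals. The labels call the big oocytes stage VI, whereas the study calls them late stage V. Each oocyte had been frozen, cut along the animal-vegetal (A-V) axis and pooled in order into 5 sections, A (extreme animal), B, C (central), D (vegetal) and E (extreme vegetal), and an equal amount of RNA of each section had been sequenced as a library of its own. Only oocytes whose marker transcripts formed a continuous gradient had been sequenced by the study.

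The growing frog oocyte stores RNA in places that later mark the body plan. RNAs of the early (mitochondrial cloud) pathway, such as *nanos1* and *dazl*, reach the vegetal tip together with the germ plasm. RNAs of the late pathway, such as *vegt*, spread through the vegetal cortex when the oocyte takes up yolk. The study also lists an intermediate pathway that overlaps both, with *grip2*, *dnd1*, *plin2* and *rbpms2* among its RNAs. The animal hemisphere holds the nucleus and less yolk. The study reports broadly similar numbers of localized RNAs for the animal and the vegetal side. The *X. laevis* genome is tetraploid by hybridisation, with a long (.L) and a short (.S) subgenome that each carry a version of many genes. These homeologs were counted separately.

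The total count of the 9 libraries ranged from 1853333 to 6276542. The median was 3151250 at stage IV and 5814683 at stage V. Apart from big oocyte 1, every stage V library was deeper than every stage IV library, so that depth ran largely with stage. In the principal components of the 500 most variable transcripts, small oocyte 2 and big oocyte 1 stood apart from the rest at the opposite ends of component 1, which held 39.2% of the variance (scores of 26.1 and -20.7, with the others between -7.01 and 13.5). The collagen *col1a1.L* of connective tissue was at 0 CPM (counts normalised to library size) in small oocyte 2 and above 0 in all others, and the globin *hbg1.L* was at 44.0 CPM in big oocyte 1 and at 0 to 9.20 CPM in the others. Big oocyte 1 was the shallowest library as well. With both left out, 20 of the 56 named calls in section B were lost (no FDR under 0.1), and the values are given below for the transcripts described. Pairs of libraries of the same stage differed by more than the sampling noise, so none was counted as a repeat of another. By a chi-square scaled to the number of transcripts, small oocyte 3 was the furthest from the others of its stage. Its pairs reached 7.82 to 11.18, and all other small pairs lay between 1.66 and 4.08. Its correlations with the other small oocytes (r of 0.942 to 0.958) overlapped those among them (0.957 to 0.978). It did not stand apart on component 1, so that leaving out small oocyte 2 and big oocyte 1 keeps it in. The markers of the vegetal tip were low in section B, which tells it from section E but not from A, C or D. The study had selected its oocytes by marker gradients, so that this is no independent check of the label. The levels of *nanos1.L* in section B were between 0 and 4.86 CPM, those of *dazl.L* between 0 and 2.59 CPM and those of *grip2.L* no higher than 7.13 CPM, and section E held 96.6% of the *grip2.L* CPM at stage IV and 97.4% at stage V. Medium oocyte 2 had the highest level of each of these 3 transcripts.

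The order of the sections had been checked by the study with RT-qPCR. Of its primer pairs 3 are shown, because the levels of their transcripts in section B are described here. The *grip2.L* pair reads a transcript of the vegetal tip, the *wnt11b.L* pair a vegetal transcript that changed in section B, and the *ifrd2.L* pair a transcript that rose there. All letters are in lower case, 5′ to 3′, as designed by the study.
grip2.L forward: tttggctttggtctctaggc
grip2.L reverse: tttgtctgtaccaccggaga
wnt11b.L forward: cagcaccagactgagcctatt
wnt11b.L reverse: cccaaaactggcccctgaa
ifrd2.L forward: atttgcggcttgctctctct
ifrd2.L reverse: cggaacaactcctccccttc

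Between stage IV and stage V, more transcripts of section B were lower than higher relative to the bulk of the transcripts counted there. Of 17379 transcripts tested with edgeR's quasi-likelihood test, 324 passed a Benjamini-Hochberg false discovery rate (FDR) under 0.1, of which 289 were lower (1.66% of those tested) and 35 were higher (0.201%) at stage V. With a change of at least 1.5-fold in addition, 203 were lower (1.17%) and 10 were higher (0.0575%). The highest and lowest oocytes of the 2 stages did not overlap for 262 of the 289 and for 33 of the 35. Over all 17379 transcripts tested, called or not, stage V lay wholly below stage IV for 583 and wholly above it for 325. A call at this FDR tends to go with separated stages, so that the non-overlap is not separate evidence. Over all transcripts tested the median log2 change was -0.01. The vegetal transcripts *vegt* and *dnd1* and the receptor transcripts *fzd1* and *acvr1* were among the lower ones, and *prr11*, *ifrd2* and *mprip* among the higher ones.

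**Figure D1:**
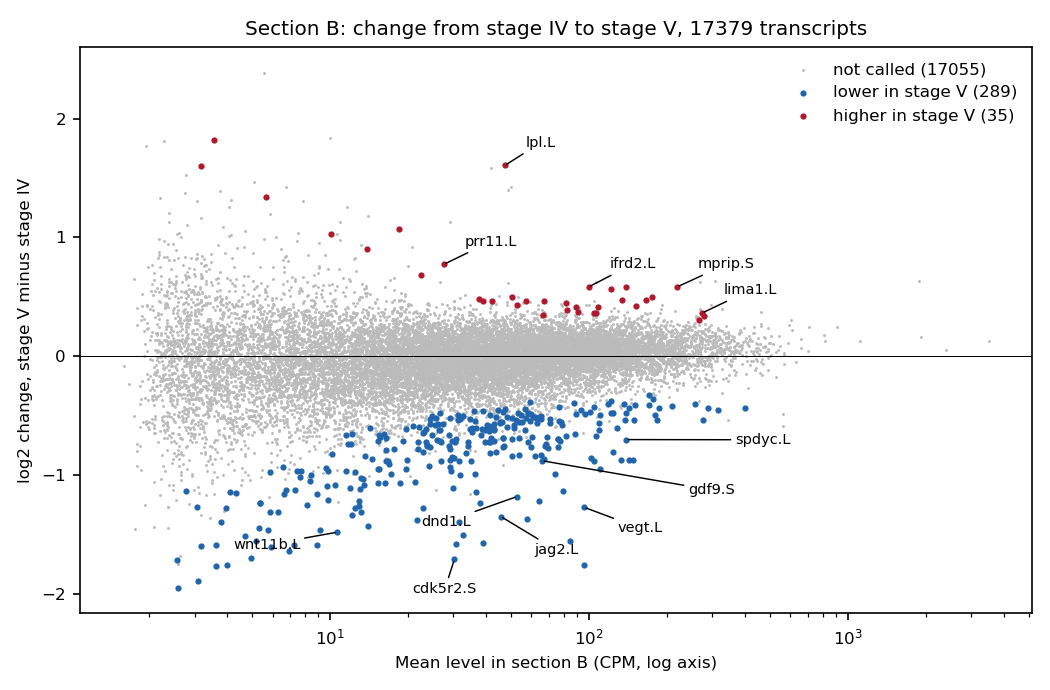
Change from stage IV to stage V in section B (vertical axis, log2 of stage V over stage IV) against the mean level (horizontal axis, CPM on a log axis) for each of the transcripts tested. The 289 transcripts that were lower are blue and the 35 that were higher are red. The lower transcripts spread over low and high levels, with *cdk5r2.S* at -1.71, and among the labelled higher ones *lpl.L* stands out at 1.61.

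These counts moved with single oocytes. Without big oocyte 1 there were 163 lower and 9 higher transcripts, without big oocyte 2 there were 92 and 8, without medium oocyte 1 there were 146 and 20, and without medium oocyte 2 there were 86 and 3. Leaving out small oocyte 4 gave 158 and 10, and leaving out small oocyte 5 gave 160 and 19. Without small oocyte 3, which was furthest from the other small oocytes by chi-square, the counts were larger, at 587 and 183. With both libraries that stood apart left out, 135 were called, 9 of them higher, of which 122 were among the 324. With all libraries thinned to the depth of the shallowest, 100 were called, 87 of them lower, and 85 of the 100 were among the 324. Thinning also leaves fewer counts to test.

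Vegetal transcripts were among those that fell. Of the late vegetal list, RNAs of the late pathway and its binding proteins, 7 of 25 transcripts tested were lower and none was higher. The median log2 change of the list was -0.18. The gene lists were chosen with earlier results of these data known, so that these counts are not independent evidence. Of all transcripts tested 1.66% were lower and 0.201% higher. The *vegt.L* transcript, which encodes the T-box factor that specifies endoderm, was at 92.0, 139.9, 155, 127 and 166 CPM in small oocytes 1 to 5, at 64.1 and 53.3 CPM in the medium and at 54.5 and 53.3 CPM in the big oocytes. Every stage V oocyte was below every stage IV oocyte, and the mean dropped from 136 ± 28.7 to 56.3 ± 5.24 CPM (SD, n = 5 and 4), which is a log2 change of -1.27 ± 0.15 (SE, FDR = 0.00142). Its homeolog *vegt.S* fell as well, from 99.1 ± 16.4 to 49.5 ± 4.37 CPM (log2 change of -0.99, FDR = 0.00198). The share of *vegt.L* that section B held, in percent of the CPM summed over the 5 sections of an oocyte, went from 11.4 ± 1.9 at stage IV to 4.06 ± 0.31 at stage V, while the share of section E went from 41.6 ± 5.3 to 52.2 ± 7.6.

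The *dnd1.L* transcript encodes an RNA-binding protein of the germ line. It was at 72.2, 74.9, 53.5, 85.8 and 80.3 CPM in the small oocytes, at 35.0 and 24.8 CPM in the medium and at 30.8 and 38.4 CPM in the big oocytes. The stages did not overlap, and the log2 change was -1.18 ± 0.16 (FDR = 0.00275). In section E the same transcript rose, with a log2 change of 1.05 there, and its share in section E went from 33.8 ± 3.7 to 62.7 ± 3.7 percent. Both copies of *rbpms2* (Hermes), a further RNA-binding protein of the germ plasm, were lower in section B, *rbpms2.S* with a log2 change of -0.88 (FDR = 0.00685) and *rbpms2.L* with one of -0.53 (FDR = 0.04). The *rbpms2.L* call was lost without big oocyte 1, big oocyte 2, medium oocyte 2 or small oocyte 4 (FDR of 0.107, 0.174, 0.150 and 0.103).

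Of the early vegetal list, 4 of 22 transcripts tested were lower and 1 was higher, against 1.66% and 0.201% of all transcripts tested. The median log2 change of the list was -0.30. This list too was chosen with earlier results of these data known, so that its counts are not independent evidence. The *velo1.L* transcript, whose protein organises the germ plasm, was at 158, 174, 169.9, 198 and 227 CPM in the small oocytes, at 102 and 100.5 CPM in the medium and at 97.4 and 104 CPM in the big oocytes. The 4 stage V oocytes lay close together and below all of the others (log2 change of -0.87 ± 0.11, FDR = 0.00184). The Wnt ligand *wnt11b.L*, a vegetal RNA of the dorsal axis, had a low level in section B at both stages. It was at 14.4, 16.9, 14.1, 16.3 and 18.1 CPM in the small oocytes, at 5.69 and 6.16 CPM in the medium and at 3.30 and 6.37 CPM in the big oocytes (log2 change of -1.48 ± 0.19, FDR = 0.00252). Section E held 81.6 ± 2.3 percent of *wnt11b.L* at stage IV and 85.0 ± 2.2 percent at stage V. The translational repressor *bicc1.S* was also lower (log2 change of -0.71, FDR = 0.0187), whereas *otx1.L*, *plin2.L* and *plin2.S* did not pass the test, with log2 changes of -0.53, -0.35 and -0.15. The 1 transcript of this list that was higher, *ifrd2.L*, was spread evenly over the sections at stage IV and is described with the animal transcripts. With both libraries that stood apart left out, 3 of the early and 6 of the late vegetal transcripts were lower. Without small oocyte 3, 7 of the early list were lower and 2 higher.

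**Figure D2:**
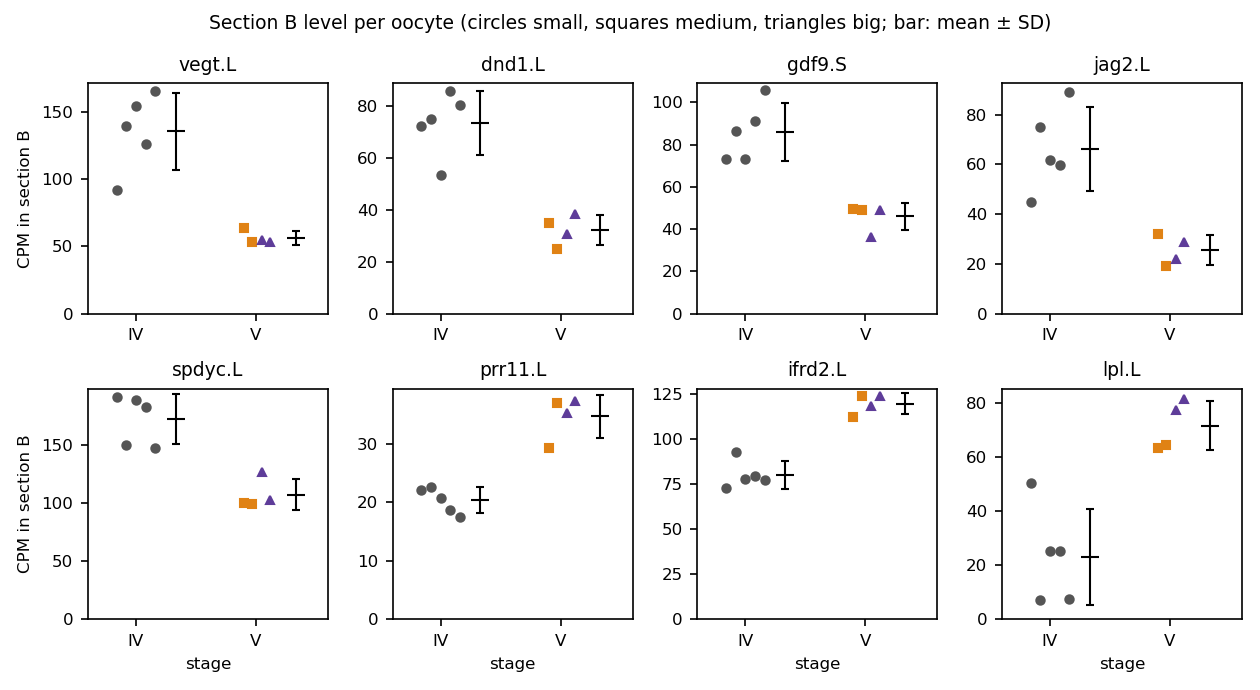
Level of 8 transcripts in section B (vertical axes, CPM from 0) for each oocyte of stage IV (circles, small) and stage V (squares, medium and triangles, big), with the mean ± SD beside each group (n = 5 and 4). The stages do not overlap for any of the 8, of which *vegt.L*, *dnd1.L*, *gdf9.S*, *jag2.L* and *spdyc.L* are lower and *prr11.L*, *ifrd2.L* and *lpl.L* are higher at stage V.

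Among the 12 lower transcripts with the largest change, several were vegetal RNAs of other functions. The largest change was that of *cdk5r2.S*, an activator of the kinase CDK5, at 29.5, 45.7, 53.8, 43.6 and 60.0 CPM in the small oocytes, 15.6 and 12.5 CPM in the medium and 11.6 and 16.3 CPM in the big oocytes. The stages did not overlap, and the fitted level was 3.27-fold lower at stage V (log2 change of -1.71 ± 0.19, FDR = 0.00136). The transcription factor *sox7.L* was at 41.0, 44.0, 48.7, 45.8 and 64.1 CPM in the small, 19.9 and 20.1 CPM in the medium and 11.6 and 14.7 CPM in the big oocytes (log2 change of -1.50 ± 0.17, FDR = 0.00136). The share of section E went from 36.4 to 51.4% for *cdk5r2.S* and from 49.7 to 56.8% for *sox7.L*. The others of the same kind were *cnppd1.L* (log2 change of -1.58), the zinc finger genes *znf644.L* (-1.57) and *znf484.L* (-1.27), and the growth factor receptor *fgfr2.L* (-1.26), for all of which section E held the largest share at both stages.

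Receptors and ligands of signalling pathways were represented by single copies. The activin receptor *acvr1.L*, a type I receptor for bone morphogenetic proteins, was at 44.0, 44.0, 41.6, 43.1 and 39.4 CPM in the small, 24.6 and 22.0 CPM in the medium and 27.0 and 24.1 CPM in the big oocytes. Its small oocytes differed little among themselves, and the log2 change was -0.81 ± 0.11 (FDR = 0.00315). The Wnt receptor *fzd1.L* was at 67.5, 81.9, 89.9, 79.9 and 98.1 CPM in the small, 46.9 and 42.3 CPM in the medium and 50.6 and 49.6 CPM in the big oocytes (log2 change of -0.83 ± 0.12, FDR = 0.0046). The *gdf9.S* transcript encodes a growth factor that the oocyte secretes to its follicle cells. It was at 73.2, 86.4, 73.4, 91.2 and 106 CPM in the small, 49.5 and 48.9 CPM in the medium and 36.3 and 49.2 CPM in the big oocytes (log2 change of -0.88 ± 0.13, FDR = 0.00685). Over the whole lists, 3 of 63 Wnt pathway and 3 of 56 transforming growth factor and BMP pathway transcripts were lower and none was higher. Their median log2 changes were 0.03 and 0.09. Of all transcripts tested 1.66% were lower and 0.201% higher, so that no higher call among so few transcripts is no result about these lists. Without small oocyte 3 the second list had 5 lower and 1 higher. The third Wnt transcript besides *wnt11b.L* and *fzd1.L* was the receptor *fzd3.S*.

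Some regulators of messenger RNA fell too. Of all transcripts tested 1.66% were lower and 0.201% higher. Of 99 transcripts of the maternal mRNA regulation list 5 were lower and none was higher (median log2 change of 0.00). The count was 2 without big oocyte 2, 3 without big oocyte 1, medium oocyte 2, small oocyte 4 or small oocyte 5, 2 without both libraries that stood apart, and 10 (with 3 higher) without small oocyte 3. The decay factor *zfp36l2.S*, which binds AU-rich elements, was at 159.8, 146, 139, 164 and 170.2 CPM in the small, 111 and 107 CPM in the medium and 95.2 and 94.5 CPM in the big oocytes (log2 change of -0.61 ± 0.09, FDR = 0.00746). The *tob2.L* transcript, whose protein recruits the deadenylase complex, had a log2 change of -1.23 (FDR = 0.0245), which was lost without big oocyte 2 (FDR = 0.113) and without both libraries that stood apart (FDR = 0.101). Its level in small oocyte 5, at 95.6 CPM, was well above the 36.6 to 48.3 CPM of the other small oocytes.

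A second set of transcripts fell in all sections. Of the 289 lower transcripts, 61 were lower in each of the sections A, C, D and E as well (84 of all transcripts tested were lower in those 4), and 62 were lower in A and C but higher in E (79 of all). The Notch ligand *jag2.L* belongs to the first set. It was at 44.6, 74.9, 61.9, 59.6 and 89.2 CPM in the small, 32.0 and 19.3 CPM in the medium and 22.0 and 28.9 CPM in the big oocytes, which do not overlap (log2 change of -1.35 ± 0.19, FDR = 0.00584). The log2 changes of *jag2.L* in sections A, C, D and E were -1.21, -1.43, -1.26 and -1.25, and section B held 19.4 ± 1.2 percent of it at stage IV and 18.6 ± 1.4 percent at stage V. The G protein subunit *gng7.S* had log2 changes of -1.40 in section B and of -1.41, -1.34, -0.91 and -1.12 in A, C, D and E. The ribosome biogenesis factor *utp15.S*, at 17.5 ± 2.95 CPM at stage IV and 6.93 ± 1.63 CPM at stage V, changed by -1.33 in section B and by -1.44, -1.39, -1.33 and -1.18 in the others. The values of *zswim5.S* were -1.38 in section B and -1.05, -1.32, -1.91 and -1.44 in the others. The receptor *fzd3.S* changed by -1.06 in section B (FDR = 0.041), a call that was lost without big oocyte 1, big oocyte 2 or medium oocyte 2 (FDR of 0.116, 0.158 and 0.181) and without both libraries that stood apart (FDR = 0.157), and its stages overlapped.

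Some transcripts of the cell cycle fell as well. The *spdyc.L* transcript encodes a Speedy/Ringo protein, an activator of cyclin-dependent kinases in meiotic maturation. It was at 192, 151, 189, 183 and 147 CPM in the small, 99.7 and 99.7 CPM in the medium and 127 and 102 CPM in the big oocytes, with all stage V oocytes below all stage IV oocytes (log2 change of -0.70 ± 0.11, FDR = 0.00811). Section B held 18.2 ± 2.2 percent of it at stage IV and 16.8 ± 1.2 percent at stage V. The replication clamp *pcna.L* was at 184, 160.5, 193, 186 and 155 CPM in the small, 122 and 118 CPM in the medium and 133 and 116 CPM in the big oocytes (log2 change of -0.53 ± 0.09, FDR = 0.0126). Cyclin B1, *ccnb1.L*, fell from 130.4 ± 20.8 to 89.0 ± 9.21 CPM (log2 change of -0.56, FDR = 0.04). Of the homeologs, *pcna.S* had a log2 change of -0.51 (FDR = 0.116) and *ccnb1.S* one of -0.20 (FDR = 0.557), and neither was called. The *ccnb1.L* call was lost without big oocyte 2, medium oocyte 1, medium oocyte 2 or small oocyte 4 (FDR of 0.148, 0.105, 0.191 and 0.120). Of the list of cyclins, cyclin-dependent kinases and the anaphase-promoting complex 3 of 58 transcripts were lower, and of the list of meiotic arrest and maturation 2 of 51, both of them copies of *spdyc*, against the 1.66% of all transcripts tested that were lower. No transcript of either list was higher, where 0.201% of all transcripts tested were. Their median log2 changes were 0.01 and -0.04. Of 64 transcripts of DNA replication and repair, *pcna.L* alone was called (1.56%), with a median of 0.02. Of 70 spindle and kinetochore transcripts 0 were lower and 1 was higher, with a median of 0.07. With 1 oocyte left out, 0 to 1 of these 70 were lower and 0 to 3 higher. The cyclin list had 0 lower transcripts without big oocyte 2, medium oocyte 2 or small oocyte 4, 1 without medium oocyte 1 and 5 without small oocyte 3. The maturation list had 1 without big oocyte 2, medium oocyte 1, medium oocyte 2, small oocyte 2, small oocyte 4 or small oocyte 5, and without small oocyte 2 it had 1 higher as well. The other lower transcripts of the cyclin list were *fbxo5.L* (Emi1, an inhibitor of the complex, log2 change of -0.55, FDR = 0.048) and the ubiquitin ligase subunit *btrc.L* (-0.33, FDR = 0.0775). Their homeologs *fbxo5.S* and *btrc.S* were not called (log2 changes of 0.12 and -0.15, FDR = 0.696 and 0.581). The share of *btrc.L* went from 16.1 to 11.3% in section B and from 33.3 to 45.7% in section E. The *fbxo5.L* call was lost without any 1 of 3 oocytes (FDR up to 0.199), and those of *btrc.L* and *spdyc.S* without any 1 of 7 (FDR up to 0.299 and 0.291). With both libraries that stood apart left out, the FDR was 0.102 for *fbxo5.L* and 0.208 for *btrc.L*, and 1 transcript of the cyclin list was lower.

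Most of the 35 higher transcripts were higher at the animal pole too. Of these, 26 were also higher in section A, where 2.71% of all transcripts tested were higher and 2.51% lower, and only 2 in section C, where 0.297% were higher and 2.56% lower. In section D 15 of the 35 were lower and in section E 18, against 3.61% lower and 1.76% higher of all transcripts in D and 4.75% lower and 5.24% higher in E. The median log2 change of the 35 was 0.47 in section B, which chose them, and 0.70, 0.09, -0.23 and -0.37 in A, C, D and E. The sections came from the same oocytes, so that these counts are not independent of each other. For the 289 lower transcripts, 189 were lower in A, 193 in C, 121 in D and 107 in E, while 97 were higher in E.

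Of the animal hemisphere list, 3 of 17 transcripts tested were higher and none was lower, against 0.201% and 1.66% of all transcripts tested. The median log2 change of the list was 0.06. This list had been drawn up with earlier results of these data known, so that its direction is not independent evidence. The *prr11.L* transcript, whose protein is rich in proline, was at 22.2, 22.6, 20.7, 18.7 and 17.5 CPM in the small, 29.3 and 36.9 CPM in the medium and 35.2 and 37.4 CPM in the big oocytes. All 4 stage V oocytes were above all stage IV oocytes (log2 change of 0.77 ± 0.13, FDR = 0.0113). Its share went from 20.9 ± 1.8 to 30.2 ± 2.1 percent in section B, from 24.1 ± 7.0 to 47.2 ± 3.7 percent in section A and from 18.2 ± 4.9 to 3.07 ± 1.3 percent in section E. The actin-binding protein gene *lima1.L* rose from 240.1 ± 10.9 to 309 ± 28.4 CPM (log2 change of 0.37, FDR = 0.0506) and the exchange factor gene *spata13.L* from 79.5 ± 7.17 to 103 ± 8.81 CPM (log2 change of 0.37, FDR = 0.0952). The *lima1.L* call was lost without big oocyte 1, big oocyte 2, medium oocyte 2, small oocyte 4 or small oocyte 5 (FDR of 0.120, 0.158, 0.241, 0.145 and 0.119), and the *spata13.L* call without any 1 of 7 of the 9 oocytes (FDR up to 0.369). With both libraries that stood apart left out, *prr11.L* alone was called of the 3. The list had 1 higher transcript without big oocyte 1, big oocyte 2, medium oocyte 2, small oocyte 4 or small oocyte 5, 5 without small oocyte 1 and 6 without small oocyte 3. Of the list of actin and small GTPase regulators, none of 96 transcripts was higher and 1 was lower (*wasl.S*, log2 change of -0.88), with a median of 0.03, and without small oocyte 3 there were 1 higher and 3 lower.

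The *ifrd2.L* transcript, an interferon-related developmental regulator, was at 72.5, 93.0, 78.0, 79.5 and 77.2 CPM in the small, 112 and 124 CPM in the medium and 118 and 124 CPM in the big oocytes. The stages did not overlap and the log2 change of 0.58 ± 0.09 (FDR = 0.00811) passed the test without any 1 of the oocytes. It had been placed in the early vegetal list, but its share at stage V was 36.3 ± 1.7 percent in section A and 10.8 ± 1.8 percent in section E. The chloride channel *ano1.L*, which in *Xenopus* eggs carries the fertilisation current, was at 105, 129.6, 81.3, 112 and 129 CPM in the small, 142 and 182 CPM in the medium and 172 and 171 CPM in the big oocytes (log2 change of 0.59 ± 0.13, FDR = 0.0422). Without big oocyte 1, big oocyte 2 or medium oocyte 2 its FDR was 0.123, 0.146 and 0.191, and without both libraries that stood apart it was 0.101. Both copies of *mprip*, a myosin phosphatase interactor, were higher, *mprip.S* at 182, 202, 168, 158 and 167 CPM in the small, 236 and 273 CPM in the medium and 324 and 223 CPM in the big oocytes (log2 change of 0.58, FDR = 0.023) and *mprip.L* with a log2 change of 0.47 (FDR = 0.0379). The *mprip.S* call was lost without medium oocyte 2 (FDR = 0.111) and the *mprip.L* call without big oocyte 1, medium oocyte 2 or small oocyte 4 (FDR of 0.121, 0.191 and 0.108) or both libraries that stood apart (FDR = 0.101). The ubiquitin ligase *peli2.S* rose from 139.9 ± 9.88 to 194 ± 11.4 CPM (log2 change of 0.47, FDR = 0.0156) and was called without any 1 of the oocytes. The homeologs *peli2.L* and *ifrd2.S* were not called (log2 changes of -0.09 and -0.12, FDR = 0.777 and 0.739). The *nbeal1.L* transcript rose by a log2 change of 0.50 (FDR = 0.0291), lost without medium oocyte 2 (FDR = 0.142).

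The largest log2 change among the higher named transcripts was that of *lpl.L*, lipoprotein lipase, with 1.61 ± 0.36 (FDR = 0.0466). Its level was 50.4, 7.00, 25.1, 25.3 and 7.62 CPM in the small, 63.3 and 64.5 CPM in the medium and 77.6 and 81.6 CPM in the big oocytes, so that the stages did not overlap although small oocyte 1 came near. The collagen *col1a1.L* was at 51.7, 0, 18.7, 43.8 and 18.4 CPM in the same small oocytes, at 48.7 and 96.7 CPM in the medium and at 89.7 and 60.5 CPM in the big oocytes. Small oocytes 2 and 5 were lowest in *lpl.L* and among the 3 lowest in the collagen. The 44 transcripts of the stroma, theca and smooth muscle list together took 765.3 to 990.4 CPM in the small oocytes and 979.9 to 1237 CPM at stage V. Of these 44, 18 passed the filter and were tested. None of the 18 was called, and their median log2 change was 0.95. Without small oocyte 2, 2 of them were higher, and without small oocyte 3, 1 was. The median was 0.54 over 21 of 30 basement membrane transcripts and 0.41 over 10 of 45 of blood and endothelium, with none called. It was 0.04 over 20 of 48 of granulosa and follicle cells. A low transcript could pass the filter through the stage V libraries alone. The filter itself can therefore raise these medians, that of the stroma list included, and they are no measure of the whole lists. Of the 48 granulosa and follicle cell transcripts, 1 (*amhr2.L*) was at 0 in all 9 libraries. So were 3 of 45 of the blood list (*hbd.L*, *lyz.L* and *rhag.S*) and 2 of 30 of the basement membrane (*col15a1.L* and *col4a5.S*). The granulosa and follicle cell list as a whole took 1049 to 1236 CPM at stage IV and 1115 to 1281 CPM at stage V. The blood and endothelium list took 101.8 to 139.3 CPM at stage IV and 124.8 to 186 CPM at stage V. Like *lpl.L*, *ahnak-like.S* (log2 change of 1.07, FDR = 0.0498) had its largest shares in the polar sections A and E at both stages, and the fitted change of both was above 0 in every section. The part of surrounding tissue in these values was not tested, and more or fewer cells of a type cannot be told apart from more or less RNA per cell. The *lpl.L* call was lost without big oocyte 1, big oocyte 2, medium oocyte 1, medium oocyte 2 or small oocyte 4 (FDR of 0.131, 0.175, 0.105, 0.136 and 0.119), and with both libraries that stood apart left out its FDR was 0.147 at a log2 change of 1.36. For *ahnak-like.S* the FDR was 0.145, 0.153, 0.151, 0.155 and 0.127 without big oocyte 1, big oocyte 2, medium oocyte 2, small oocyte 4 and small oocyte 5, and 0.141 without both libraries that stood apart.

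Whether the change in section B differed from that in the rest of the same oocytes was tested in 1 fit of the 45 libraries of female 1, with the oocyte as block. Against the mean change of A, C, D and E, the change in B was more positive for 73 of 18218 transcripts (0.401%) and more negative for 120 (0.659%). Among the transcripts that met the naming rule, the largest positive value was that of *prr11.L*, at 1.51 (FDR = 3.02e-05), followed by *spata13.S* (1.16), *slc48a1.L* (0.99), *prrg4.L* (0.99) and the spindle protein gene *nusap1.S* (0.85). Of these, *spata13.S*, *slc48a1.L* and *nusap1.S* were not called in section B itself, where their log2 changes were 0.36, 0.59 and 0.43. The call of *prrg4.L* in section B was lost without any 1 of 6 of the 9 oocytes (FDR up to 0.333). It had an FDR of 0.152 without both libraries that stood apart. The changes of *spata13.S*, *slc48a1.L* and *nusap1.S* in section E were -2.34, -1.49 and -1.42. Among the most negative values were those of *cdk5r2.S* (-1.39, FDR = 2.67e-05), *sox7.L* (-1.16), *vegt.L* (-1.14), *cnppd1.L* (-1.09) and *znf484.L* (-1.02). In contrast, *jag2.L* had a value of -0.09 (FDR = 0.963) and *gng7.S* one of -0.19 (FDR = 0.903). Without section E among the others, 0 transcripts were more positive and 3 more negative. Without the block 52 were more positive and 73 more negative. Single oocytes moved the counts as well, to 39 and 52 without big oocyte 2 and to 37 and 79 without medium oocyte 2, and the negative count to 63 without medium oocyte 1. The call of *cnppd1.L* was lost without big oocyte 2, medium oocyte 1 or small oocyte 5 (FDR of 0.153, 0.196 and 0.103), and that of *znf484.L* without big oocyte 2 or medium oocyte 2 (FDR of 0.200 and 0.196).

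**Figure D3:**
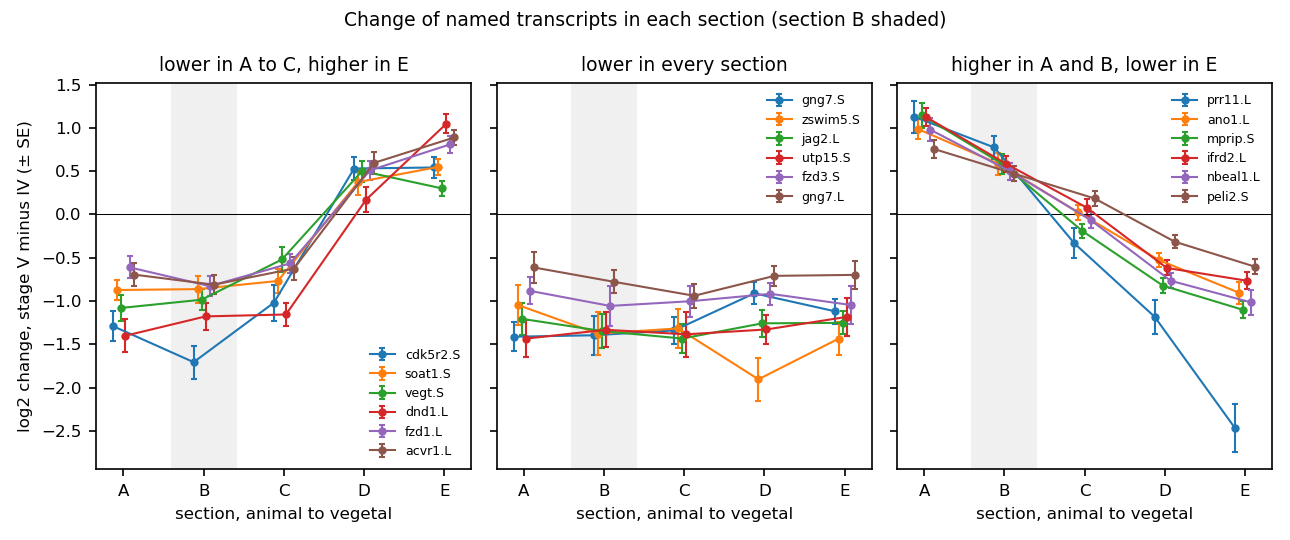
Log2 change from stage IV to stage V (vertical axis, ± SE of the fit in each section) in sections A to E (horizontal axis) for 18 named transcripts in 3 patterns, with section B shaded. In the left panel the changes in A to C are below 0 and those in E above it, as for *dnd1.L* with -1.18 in B and 1.05 in E. In the middle panel all changes are below 0, and in the right panel they go down from A to E, as for *prr11.L* with 1.13 in A and -2.47 in E.

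The change in section B was also set against that in each neighbour. Against section C, 0 transcripts were more positive (0%) and 0 more negative (0%) with edgeR. An unadjusted p under 0.05 was found for 654 of 18218, fewer than this cut-off gives where nothing differs. Without small oocyte 1, 2 were more positive. Against section A, 0 were more positive (0%) and 8 more negative (0.0439%). These 8 were *lima1.L*, *spata13.L*, *mprip.L*, *smtn.S*, *map4.S*, *grhl1.L*, *dcp1a.L* and *ssr1.L*. Against section A, too, the 842 of 18218 with an unadjusted p under 0.05 were fewer than this cut-off gives where nothing differs. For *spata13.L* the log2 change was 1.18 in section A and 0.37 in section B, a difference of -0.82 (FDR = 0.00247). The transcription factor *grhl1.L* changed by 0.70 in A and by 0.12 in B, a difference of -0.58 (FDR = 0.0045). Its B level was 187, 195, 180.3, 192 and 208 CPM in the small, 198 and 232 CPM in the medium and 195 and 213 CPM in the big oocytes, which overlap. The calls of *lima1.L*, *spata13.L* and *grhl1.L* held without any 1 of the oocytes, whereas that of *map4.S* was lost without any 1 of 7 and that of *dcp1a.L* without any 1 of 6. The *smtn.S* call was lost without big oocyte 2, medium oocyte 1, medium oocyte 2 or small oocyte 3 (FDR of 0.200, 0.139, 0.254 and 0.101), the *mprip.L* call without big oocyte 2 or small oocyte 2 (FDR of 0.168 and 0.103) and the *ssr1.L* call without big oocyte 2 (FDR = 0.168). The count of 8 was 3 without big oocyte 2 and 5 without medium oocyte 1, medium oocyte 2 or small oocyte 2.

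In most pairs of homeologs with a call, a single copy was called. Of 4863 homeolog pairs with both copies tested, 192 had at least 1 copy called in section B, 15 had both (14 lower and 1 higher), and no pair was called in opposite directions. Of all transcripts tested 1.66% were lower and 0.201% higher. With so few calls, these counts are no result about the pairs. A second copy could change alike and miss the threshold, as for *arid1b* (-0.55 for .L and -0.49 for .S, FDR = 0.0525 and 0.202). The same was seen for *pcna* (-0.53 and -0.51, FDR = 0.0126 and 0.116). For *gdf9*, the .L copy was at 146, 137, 169, 144 and 142 CPM in the small, 128 and 141 CPM in the medium and 132 and 134 CPM in the big oocytes (log2 change of -0.14, FDR = 0.557), against -0.88 for the .S copy. The .L copy was spread evenly over the 5 sections at stage V, with 19.8% in section E, whereas section E held 46.0% of the .S copy. For *acvr1* it was the .L copy that fell, while *acvr1.S* was at 108, 132, 167, 115 and 104 CPM in the small, 141 and 137 CPM in the medium and 130.4 and 138 CPM in the big oocytes (log2 change of 0.12, FDR = 0.754). Section E held 47.4% of *acvr1.L* and 20.7% of *acvr1.S* at stage V. The same order was seen for *fzd1* (-0.83 for .L and 0.14 for .S, with 42.8 and 18.5% in section E), for the cholesterol-esterifying enzyme *soat1* (0.07 and -0.86, with 23.0 and 55.1%, where the *soat1.S* call had an FDR of 0.101 without both libraries that stood apart) and for *cdk5r2* (-0.14 and -1.71, with 19.3 and 51.4%). Both copies were lower for *vegt* and *gng7*. The pairs given with shares were picked from the named transcripts, and their order did not hold for every pair with 1 copy called. For *jag2* (-1.35 for .L and -0.36 for .S) and *utp15* (-0.34 and -1.33), the called copy fell in every section. The shares were not compared over all pairs. The difference between the copies was not tested, and reads that match both copies may be lost or assigned to either by the counting.

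**Figure D4:**
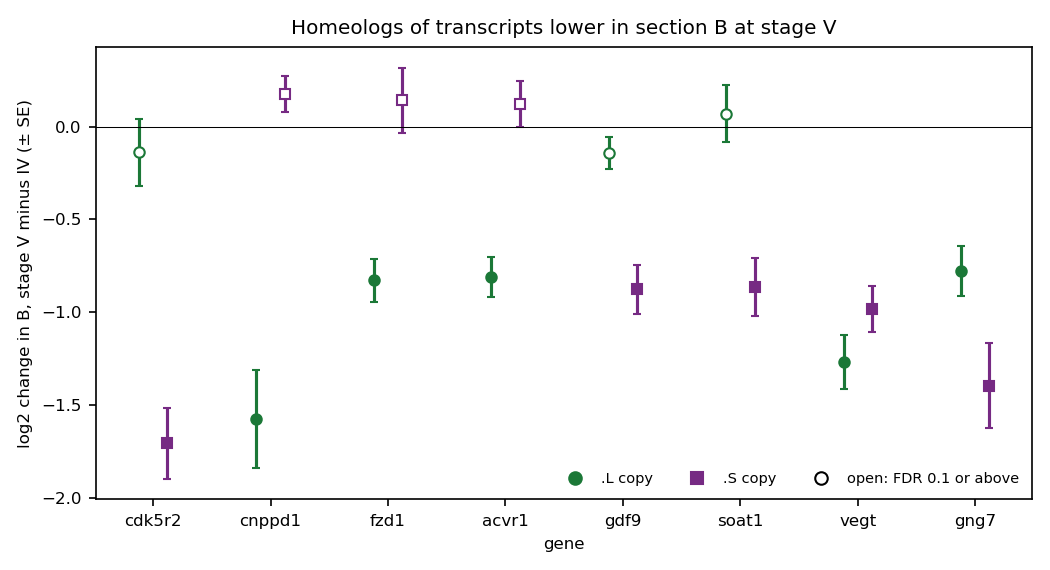
Log2 change in section B from stage IV to stage V (vertical axis, ± SE) for the .L copy (circles) and the .S copy (squares) of 8 genes with at least 1 copy called lower. Filled symbols have an FDR under 0.1. For *cdk5r2*, *cnppd1*, *fzd1*, *acvr1*, *gdf9* and *soat1* 1 copy is filled and the other lies between -0.14 and 0.18, and for *vegt* and *gng7* both are filled.

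Most of the other gene lists held few calls, where 1.66% of all transcripts tested were lower and 0.201% higher. Of 102 ribosomal protein transcripts 1 was lower and none higher, with a median log2 change of -0.15, and of 115 transcripts of oxidative phosphorylation 1 was lower, with a median of -0.13. The 10 egg envelope transcripts all had a log2 change below 0 (median -0.30), and 1 of them, *zp4.S*, passed the test with a log2 change of -0.53 (FDR = 0.0674). The *zp4.S* call was lost without any 1 of 7 of the 9 oocytes (FDR up to 0.201). Of 63 proteasome transcripts 2 were higher, the ATPase *psmc3.S* (0.50, FDR = 0.0763) and the ubiquitin receptor *adrm1.L* (0.48, FDR = 0.0952), and 1 was lower, the ATPase *psmc6.L* (-0.61, FDR = 0.0853). Each of these 3 calls was lost without any 1 of at least 6 of the oocytes. With both libraries that stood apart left out, the FDR was 0.208 for *zp4.S*, 0.196 for *psmc3.S*, 0.252 for *adrm1.L* and 0.198 for *psmc6.L*. No transcript was called in either direction among 47 of histone chaperones and oocyte chromatin, 60 of translation factors, 89 of the nuclear pore and nuclear transport, 100 of splicing factors, 53 of heat shock and immediate early genes, and 47 of the V-ATPase and lysosome. These counts of 0 changed with single oocytes. Without small oocyte 3, 2 were higher and 1 lower of the histone chaperones, 1 and 2 of the translation factors, 3 and 3 of the nuclear pore, 1 and 0 of the splicing factors, 1 and 1 of the heat shock list and 1 and 4 of the V-ATPase and lysosome, and without small oocyte 2, 1 of the V-ATPase and lysosome was lower. Leaving out small oocyte 3 also gave 6 lower ribosomal protein, 6 oxidative phosphorylation and 5 egg envelope transcripts, and at least 1 other oocyte left out took each of these 3 counts to 0. Of 34 oocyte markers 4 were lower (1 without big oocyte 2, medium oocyte 2 or small oocyte 4, 2 without big oocyte 1, medium oocyte 1 or small oocyte 5 and 8 without small oocyte 3, and 2 without both libraries that stood apart), and their summed level was 5302 to 5796 CPM at stage IV and 5017 to 5295 CPM at stage V. The 4 lower markers were *zar1.L* and the transcripts *gdf9.S*, *ccnb1.L* and *zp4.S* already described above.

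**Figure D5:**
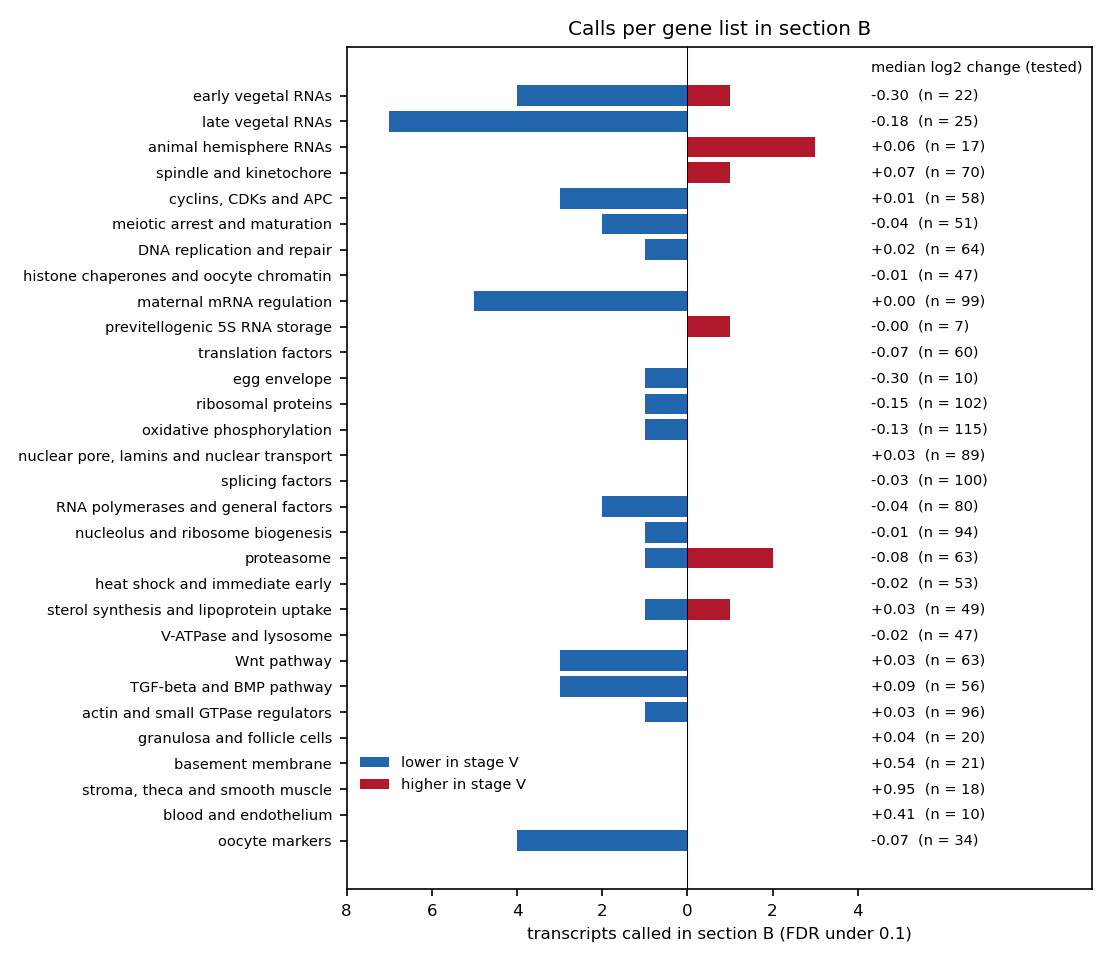
Number of transcripts called lower (blue, to the left) and higher (red, to the right) in section B at stage V for each of 30 gene lists (horizontal axis, count of transcripts with an FDR under 0.1), with the median log2 change and the number tested at the right. The late vegetal list has the most lower calls, 7 of 25, and the animal hemisphere list the most higher ones, 3 of 17.

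The number of transcripts detected in section B was compared at a common depth. At the depth of the shallowest library, 1853333 counts, transcripts with at least 5 counts numbered 17144, 17000, 16969, 17073 and 17010 in the small, 16941 and 16968 in the medium, and 17030 and 16942 in the big oocytes. The groups overlapped, and the difference of the means, -68.95, did not pass a two-sided exact permutation test (p = 0.135, where 0.0159 is the smallest that 4 oocytes against 5 allow). With at least 10 counts the difference was -151.8 transcripts (exact p = 0.0317), and with at least 1 count it had the opposite sign, at 64.6 (exact p = 0.603).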

How the data were processed

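Whole-number counts per transcript were deposited by the authors, who had depleted ribosomal RNA, trimmed the paired reads with Trimmomatic, removed ribosomal and mitochondrial reads with SortMeRNA, mapped what remained with STAR 2.5.2b (X. laevis assembly 9.1) and assigned reads to genes with htseq-count. Reads that match both homeologs may be lost or misassigned by such counting. The 9 section B libraries were compared with edgeR 4.0.16 (R 4.3.3) by its quasi-likelihood test, after TMM scaling and the filterByExpr filter with a minimum count of 10, and adjusted by Benjamini-Hochberg over all transcripts tested. CPM were TMM-scaled, and a change in CPM is relative to the bulk of the transcripts counted in a library, without ribosomal and mitochondrial RNA. The change in B was compared with that in the other sections in 1 edgeR fit of 45 libraries with the oocyte as block. Sections share an oocyte by the labels, and the deviations of B correlated best with those of the other sections of the same oocyte for 8 of 9 oocytes (r of -0.038 to 0.512, against -0.374 to 0.168 between oocytes). Shares treat the 5 sections as equal amounts of RNA.

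Named transcripts have a symbol and a mean of at least 50 counts. They are the 12 with the largest change in each direction among called transcripts whose stages do not overlap, up to 3 per gene list and direction, the 6 with the largest contrast to the other sections in each direction, and transcripts that the study names. The homeologs of these, the primer markers and the 8 transcripts called against section A, which were chosen after their values were seen, were added. A withheld item that met the rule is not reported here. The members and the gene lists were chosen with earlier results of these data known. Scripts were tested on simulated data. Alternatives were other scalings (RLE, library totals), filters and thresholds, DESeq2 1.42.0, other sets of samples, thinned counts and each oocyte left out. Symbols were as deposited, and no genome was used here.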

Additional observations from a re-analysis of the deposited data

Results flagged for a closer look

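In 8 of 130 groups of 4 or 5 oocytes, 1 oocyte lay far from the others of its stage, and chance gives about 1 in 20. Big oocyte 1, the shallowest library, was the distant one for *vegt.S* (42.9 CPM at stage V), *spdyc.L* (127.1 CPM) and *gdf9.S* (36.3 CPM). Medium oocyte 1 was distant for *vegt.L* (64.1 CPM) and *fzd3.S* (16.6 CPM). Among the small oocytes, number 1 was distant for *znf644.L* (35.2 CPM), number 3 for *exd2.L* (93.0 CPM) and number 5 for *tob2.L* (95.6 CPM).

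The change from stage IV to stage V differed between sections B and A, by the edgeR test of the difference with the oocyte as block, for 8 transcripts. The log2 change in B minus that in A was -0.91 for *mprip.L* (FDR = 0.00971), -0.62 for *lima1.L* (FDR = 0.00247), -0.82 for *spata13.L* (FDR = 0.00247) and -0.58 for *grhl1.L* (FDR = 0.0045). It was -0.83 for *smtn.S* (FDR = 0.0184), -0.66 for *ssr1.L* (FDR = 0.00971), -0.66 for *dcp1a.L* (FDR = 0.0731) and -0.65 for *map4.S* (FDR = 0.0731). The calls of *map4.S*, *dcp1a.L*, *smtn.S*, *mprip.L* and *ssr1.L* were each lost without at least 1 of the oocytes. By the same test 842 of 18218 transcripts had an unadjusted p under 0.05, fewer than this cut-off gives where nothing differs.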

How the results depend on the processing

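All 56 named transcripts called in section B kept their direction under each alternative run. Many were named because their stages do not overlap, so that leaving oocytes out could hardly turn the sign. Of the 56, 56 stayed called with RLE scaling, 55 with DESeq2 and 32 to 56 with 1 oocyte left out. With thinned counts 33 stayed called, with a replicate block by title number 28, with the medium oocytes alone 7 and with the big oocytes alone 1. The counts of calls were less stable, and the cause was not tested unless the setting itself uses fewer samples or counts. Counts are given as higher and lower at stage V, then with a 1.5-fold change. Leaving out 1 oocyte gave 3 to 183 higher and 86 to 587 lower, and 1 to 26 and 79 to 297 with the fold. Without big oocyte 1 and small oocyte 2 together, chosen after seeing the data, 135 were called, 9 of them higher, and 5 and 114 passed with the fold. The medium oocytes alone gave 0 and 9 (0 and 9 with the fold) and the big oocytes alone 0 and 2 (0 and 2). Thinning to 1 depth gave 13 and 87 (80 lower with the fold). An FDR under 0.05 gave 16 and 166 (132 lower with the fold), and 1 fit of all 45 libraries 209 and 623 (28 and 340). That fit had no oocyte block, so that the spread was estimated with the sections of an oocyte taken as separate libraries. Without a filter 77 were higher (40 with the fold), and with DESeq2 91 (23 with the fold), where 322 of the 324 calls were shared. Same-numbered oocytes of different sizes share only a number (r of 0.0299 to 0.159), and a replicate block by that number gave 2 and 63 (0 and 51 with the fold).

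Against the other sections, leaving out 1 oocyte gave 37 to 77 more positive and 52 to 151 more negative transcripts, no replicate block 73 more negative, no filter 197 more negative, and leaving out section E 0 and 3. Against section A the count of 8 ranged from 3 to 11 and was 7 with no replicate block, and against section C that of 0 more positive from 0 to 2. The difference in detected transcripts was -151.8 at 10 counts (exact permutation p = 0.0317), changed sign to 64.6 at 1 count (p = 0.603), and was -88.87 to -42.75 with 1 oocyte left out. The depth of 1853333 counts in big oocyte 1 limits what can be called among low transcripts, and 4 oocytes against 5 of 1 female carry no spread between animals.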
